A study of Mus musculus with 27 samples.

Results

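The 3 vesicular glutamate transporters of the mouse, Slc17a6 (VGLUT2), Slc17a7 (VGLUT1) and Slc17a8 (VGLUT3), were followed through 18 retinal and 9 brain RNA libraries. They were chosen by gene symbol, with the transcripts of each gene summed, and are 3 of the 30735 genes in the deposited table. The rule of choice used no measured value, but earlier results of these data were known when it was made. The study marked retinal ganglion cells (RGCs), the neurons that send the retina's output to the brain, by placing alkaline phosphatase (AP) at the Brn3a (Pou4f1) or Brn3b (Pou4f2) locus of C57Bl/6 mice. Both loci encode POU-domain transcription factors, and a cell carries AP where the tagged locus is active. Beads with an antibody against AP pulled AP-positive cells, called RGC here, out of dissociated retinas, and the unbound supernatant (SN) was kept. HET mice carried 1 AP allele and 1 intact allele (AP/WT), KO mice 1 AP allele and 1 null allele (AP/KO), so every retinal library came from an animal with an AP allele at the locus named. At postnatal day 3 (P3) the 4 genotypes (HET and KO at either locus) gave 2 RGC libraries and 1 SN library each, and at embryonic day 15 (E15) the 2 Brn3b genotypes gave the same. Brains of wild-type C57Bl/6 pups at P3, with no AP allele named, gave 3 libraries of superior colliculus (SC), 3 of lateral geniculate nucleus (LGN), 1 of pretectal area (PTA) and 2 of the pooled remaining sections, dissected after cholera toxin B had been injected into the eyes to show the optic axons.

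A neuron that releases glutamate first has to load it into synaptic vesicles, and these 3 proteins do the loading, driven by the proton gradient of the vesicle membrane. VGLUT2 is the transporter of RGCs and of many thalamic and midbrain neurons, VGLUT1 is that of photoreceptors, bipolar cells and most cortical and hippocampal excitatory neurons, and VGLUT3 is found in a class of amacrine cells and in scattered neurons that also release another transmitter. In the newborn brain VGLUT2 comes early and VGLUT1 builds up with age.

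In the deposited GRCm38 coordinates Slc17a6 (ENSMUSG00000030500) lies on the plus strand of chromosome 7 from 51621830 to 51671125 and has 1 transcript of 4319 bases. Slc17a7 (ENSMUSG00000070570) lies on the same chromosome and strand from 45163921 to 45176138, with 1 transcript of 2939 bases. Slc17a8 (ENSMUSG00000019935) is on the minus strand of chromosome 10 from 89574020 to 89621253, and its count came almost wholly from 1 transcript of 4456 bases: the shorter one of 1863 bases held at most 2.718 counts in any library. Each main transcript has 12 exons. By gene extent, the predicted gene Gm45072 overlaps Slc17a6 and the microRNA gene Mir7055 overlaps Slc17a7, each on the same strand. Whether the overlaps include exon bases, where a read could belong to either gene, was not checked. Because Slc17a6 was lower in Brn3b KO RGCs, as the values given later show, the 250 bases before its 2 RefSeq start sites (build GRCm38.p6, plus strand, 5′ to 3′) are shown. The first window, chr7:51621580-51621829, ends at the start of the deposited transcript, and the second, chr7:51624387-51624636, lies in its intron 1. Capitals mark every match to ATNATTAAT, a core known to be bound by Brn3 factors, or TAATTA, a homeodomain core, on either strand.
Slc17a6 first start: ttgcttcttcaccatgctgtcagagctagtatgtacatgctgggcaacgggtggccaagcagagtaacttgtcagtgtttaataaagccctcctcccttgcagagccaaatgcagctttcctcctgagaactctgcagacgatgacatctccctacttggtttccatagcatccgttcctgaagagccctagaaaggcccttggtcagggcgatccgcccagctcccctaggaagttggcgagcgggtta
Slc17a6 intronic start: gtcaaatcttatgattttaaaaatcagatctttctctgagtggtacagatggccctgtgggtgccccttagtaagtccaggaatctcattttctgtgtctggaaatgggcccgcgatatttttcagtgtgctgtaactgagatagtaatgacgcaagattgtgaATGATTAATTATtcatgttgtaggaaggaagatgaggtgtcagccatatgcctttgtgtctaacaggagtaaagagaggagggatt
The first window holds neither motif. The intronic window holds 2 overlapping ATNATTAAT matches, 1 on each strand, and 1 TAATTA inside the same run of bases. Of the 32851 windows of this length before RefSeq starts, 0.935% hold ATNATTAAT and 4.84% hold TAATTA. The window before the Slc17a7 start, chr7:45163671-45163920, holds neither, nor does it hold TAATCC, the core bound by the photoreceptor factors Crx and Otx2, which 6.25% of windows hold. A match describes letters, not binding.

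Retinal libraries held 28905675 to 37394655 estimated counts and brain libraries 10122962 to 13769685. Pou4f1 stood at 16.7 and 10.97 CPM (counts scaled to library size) in the Brn3a KO RGC libraries against 486 and 444 in HET, and Pou4f2 averaged 19.8 against 240 CPM in Brn3b KO and HET at P3 and 64.4 against 274 at E15. One Brn3a KO library (replicate 2) carries a Brn3b entry in its genotype label but has the Pou4f1 level of the other. All 14 RGC markers were detected in every retinal library. Microglia and macrophage markers, which SN almost lacked (summed 8.39 to 27.6 CPM at P3), reached 997 to 3913 CPM in the P3 RGC libraries, so the AP-positive fraction held other cells too. In bulk RNA, fewer cells of a type and less RNA per cell cannot be told apart. The labels do not say that replicates came from separate animals, so a p-value measures only the spread between libraries. Adjusted p-values are from edgeR's quasi-likelihood test with Benjamini-Hochberg adjustment over all genes tested, and a gene passes under 0.05.

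To compare the 3 genes with each other, counts were divided by transcript length and scaled to library size (TPM). Slc17a6 was the most abundant in both Brn3a RGC groups: at 213 and 229 TPM in HET it made up 93.8% and 92.5% of the summed TPM of the 3 genes, and at 185 and 170 TPM in Brn3a KO it made up 96.8% and 85.3%. In Brn3b HET RGCs at P3 its share was smaller, at 62.7% and 76.9%, and Slc17a7 made up most of the rest. In Brn3b KO RGCs at P3 the order turned, with Slc17a7 at 69.0 and 38.4 TPM and Slc17a6 at 18.2 and 26.3 TPM. In these libraries RGC markers summed to 1765 to 2043 CPM, against 893 to 1583 in SN at P3 and 8841 to 9578 in Brn3a HET RGCs. Photoreceptor markers summed to 3197 to 4727 CPM against 2607 to 3228 in SN, and amacrine markers to 857 to 1060 against 878 to 1035. Progenitor and Mueller glia markers were lower than in SN, at 782 to 1924 against 2270 to 3203 CPM. The part of other cells in the turned order was not tested. SN at P3 also had more Slc17a7, whose share ran from 59.1% to 83.4% over the 4 libraries. At E15 all 6 retinal libraries had Slc17a6 as the main transporter, with 96.0% to 98.1% in HET RGCs, 76.8% and 79.1% in KO RGCs and 88.1% to 91.7% in SN. Slc17a8 stayed under 2.6% of the sum in every library but 1, a Brn3b KO E15 RGC library with 7.60%, where the whole sum was only 6.57 TPM.

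**Figure D1:**
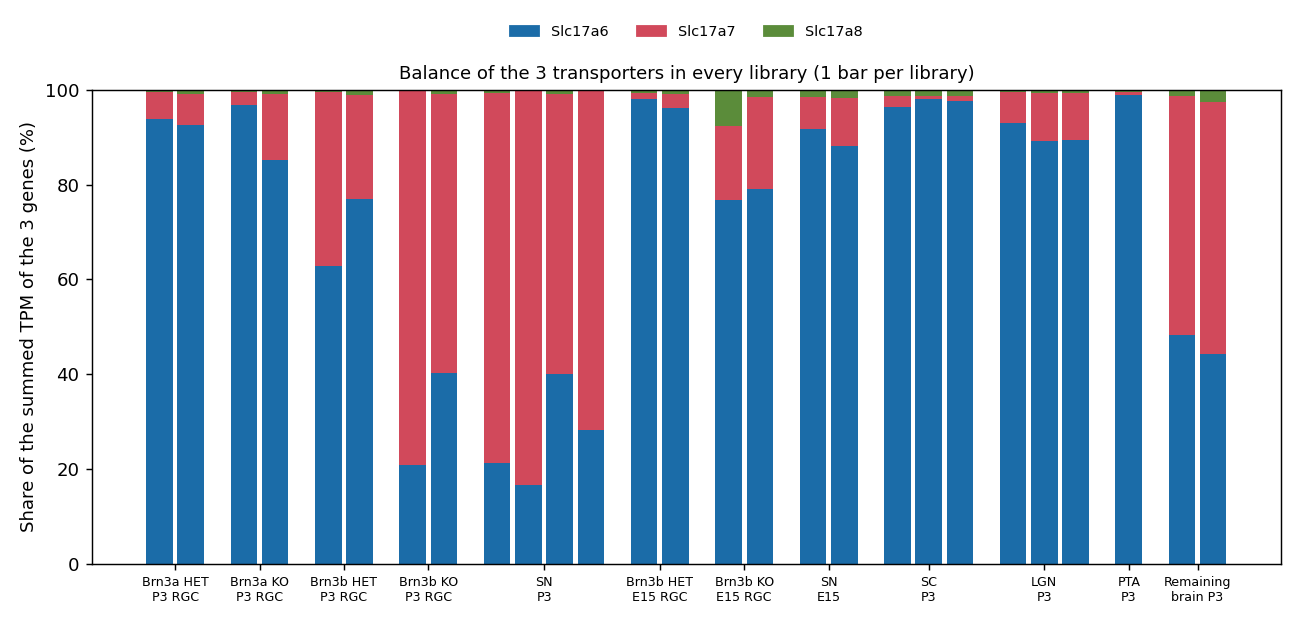
Share of each transporter in the summed TPM of the 3 genes (vertical axis, percent), 1 bar per library, in the order of the groups named under the bars. Slc17a6 makes up 92.5% and 93.8% in the Brn3a HET RGC libraries and 20.8% and 40.3% in the Brn3b KO P3 RGC libraries, and Slc17a7 more than Slc17a6 in the remaining brain.

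The log2 ratio of Slc17a6 to Slc17a7 TPM (pseudocount 0.1) averaged 1.96 ± 2.42 (SD, n = 8) in P3 RGC libraries and -1.52 ± 0.76 (SD, n = 4) in P3 SN. The difference of 3.48 had an exact two-sided permutation p of 0.0242, and 0.0727 (difference 3.21) without the Brn3a KO SN library. The groups overlapped: the 2 Brn3b KO RGC libraries, at -1.92 and -0.55, lay within the SN range of -2.32 to -0.56 or just above it, and the other 6 RGC libraries, from 0.77 to 5.12, lay above all SN libraries. Genotypes were pooled here because 2 libraries against 2 cannot reach a low p. The RGC libraries are not replicates of 1 condition: the mean ratio was 3.92 in Brn3a HET, 3.87 in Brn3a KO, 1.28 in Brn3b HET and -1.23 in Brn3b KO. This p therefore describes the pooled libraries and does not measure the spread between replicates of a genotype.

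Slc17a6 marked the AP-positive fraction at P3. In CPM it measured 502 and 528 in Brn3a HET RGCs, 446 and 405 in Brn3a KO, 208 and 267 in Brn3b HET and 40.8 and 58.8 in Brn3b KO. The 4 SN libraries measured 15.8 (Brn3a HET), 19.1 (Brn3a KO), 36.6 (Brn3b HET) and 29.1 CPM (Brn3b KO). Every RGC library lay above every SN library, by a wide margin except for Brn3b KO. Against the pooled SN, log2 fold changes were 4.36 ± 0.35 (SE; adjusted p = 3.21e-07) for Brn3a HET, 4.08 ± 0.35 (5.97e-07) for Brn3a KO and 3.24 ± 0.34 (7.96e-06) for Brn3b HET. For Brn3b KO the difference was 0.99 ± 0.34 and did not pass (adjusted p = 0.107). These 4 comparisons share the same SN libraries. With so many genes differing between the fractions a call is common here: 28.8% of 16954 genes tested were called higher in Brn3a HET RGCs than in SN, 27.5% in Brn3a KO, 19.6% in Brn3b HET and 5.23% in Brn3b KO. In Brn3a HET RGCs all 14 RGC markers passed as higher too, in Brn3b HET 13 of 14.

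**Figure D2:**
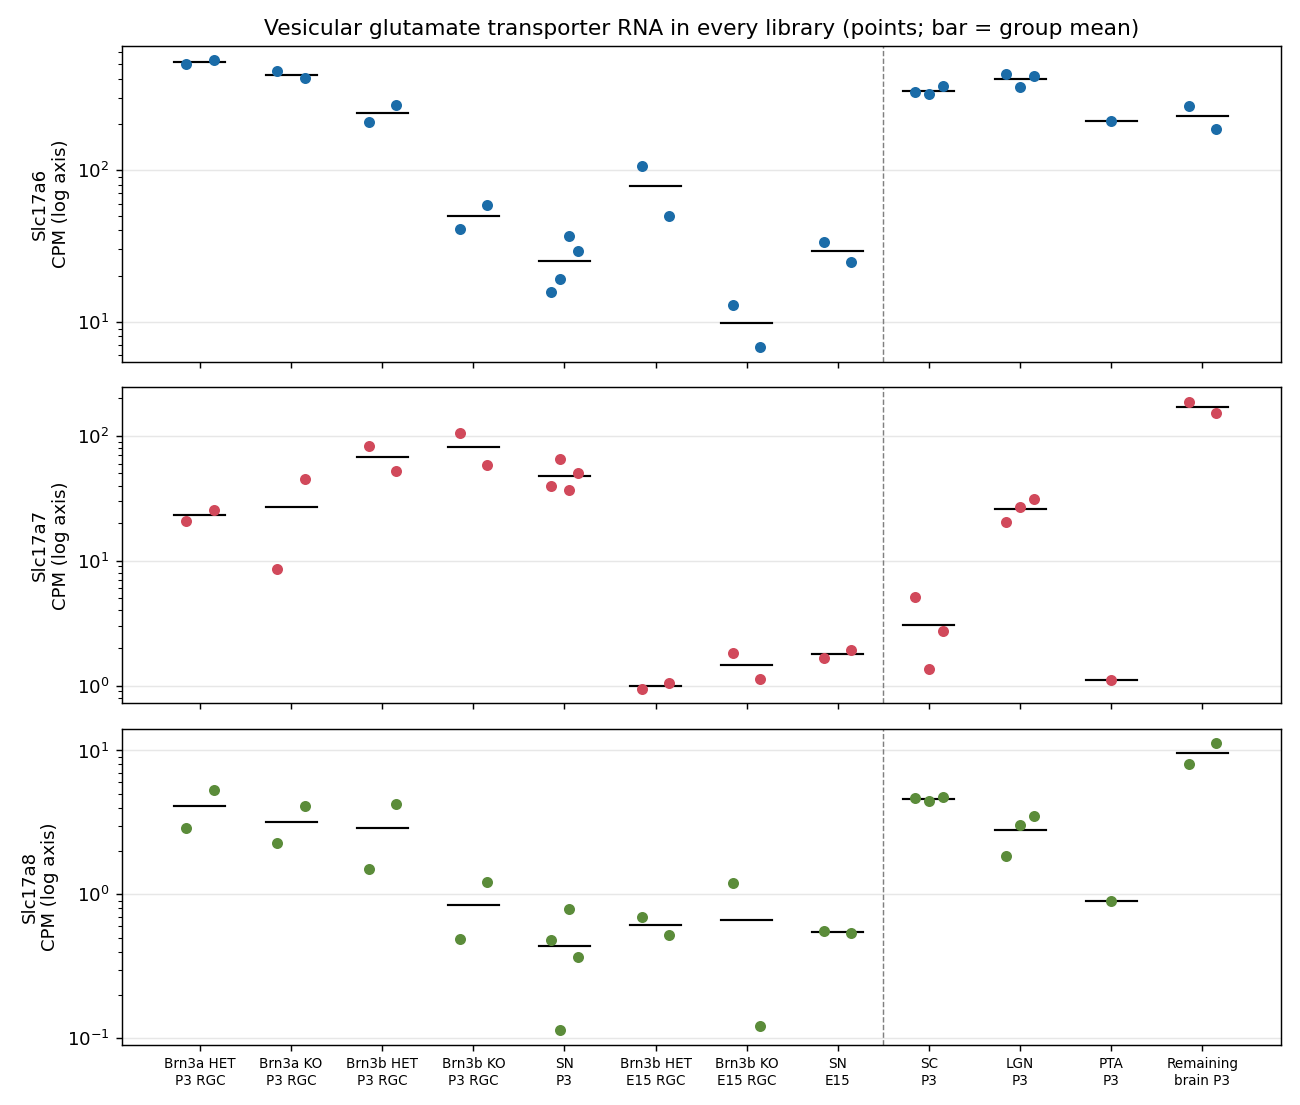
CPM of each transporter (vertical axes, logarithmic) in every library, by group; points are libraries and bars group means, with retina left and brain right of the dashed line. Slc17a6 runs from 528 CPM in a Brn3a HET library to 6.78 CPM in a Brn3b KO E15 library, while Slc17a7 sits at or under 1.93 CPM in all 6 E15 libraries.

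Slc17a6 was lower past the test in Brn3b KO RGCs, and not past it in Brn3a KO RGCs. In Brn3a KO against HET RGCs the ranges, 405 to 446 and 502 to 528 CPM, did not overlap, but the difference of -0.27 ± 0.36 did not pass (adjusted p = 1, with 0.018% of 16673 genes called). In Brn3b KO against HET at P3, Slc17a6 was lower by 2.25 ± 0.37 on the log2 scale, 4.74-fold (adjusted p = 0.0197), with 3.15% of genes tested called lower. The KO libraries, at 40.8 and 58.8 CPM, lay well under the HET libraries at 208 and 267. That P3 call is fragile: with only the 4 libraries compared in the fit the size was the same but the adjusted p 0.0625 (no gene was called in that edgeR fit, where 3164 genes had an unadjusted p under 0.05; DESeq2 called 1545 in all). Without Brn3b HET replicate 2, KO replicate 1 or KO replicate 2 the adjusted p was 0.179, 0.136 and 0.0992, with log2 fold changes from -2.01 to -2.52. The Brn3b effect minus the Brn3a effect was -1.98 ± 0.51, which did not pass (adjusted p = 0.219; 0.012% of genes called), so a difference between the loci is not shown by this test; with DESeq2 it passed at an adjusted p of 0.00906.

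Slc17a6 was lower in KO at E15 too. Slc17a6 measured 106 and 50.1 CPM in Brn3b HET RGCs, 13.0 and 6.78 in KO RGCs and 33.6 and 24.8 in SN. KO libraries lay below SN and HET libraries above it, without overlap. KO against HET was -2.98 ± 0.39, a 7.92-fold lower level (adjusted p = 0.00608, with 1.18% of 16673 genes called lower), and adjusted p stayed at 0.0482 or less when any 1 of the 4 libraries was left out; with only the 4 libraries in the fit it was 0.173. Against E15 SN, HET RGCs were higher by 1.42 ± 0.41 (adjusted p = 0.0389; 9.35% of genes called higher) and KO RGCs lower by 1.56 ± 0.42 (adjusted p = 0.0195; 11.5% called lower). Both of these calls against SN were lost when single libraries were left out. For HET the adjusted p was 0.366 without HET RGC replicate 1, 0.137 without the HET SN library and 0.113 without the KO SN library, and for KO it was 0.156 without the HET SN library and 0.137 without KO RGC replicate 2. The KO effect at P3 minus that at E15 was 0.74 ± 0.51 and did not pass (adjusted p = 0.605; 0.192% of genes called), so no difference in the size of the fall between ages was detectable.

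RGC markers were compared beside Slc17a6 at both ages. These 14 genes are not confined to RGCs: they summed to 6693 to 7929 CPM in the LGN and 4239 to 5040 CPM in the SC libraries. A like sum in 2 groups therefore does not show a like share of RGCs. The summed level of the 14 markers was 4023 to 5790 CPM in Brn3b HET and 1765 to 2043 in KO RGCs at P3. There 11 of 14 passed as lower in KO, where 3.15% of all genes tested did. At E15 the sums overlapped, at 7073 and 11910 CPM in HET against 7732 and 8829 in KO. Of the 14 markers 4 passed as lower, where 1.18% of all genes did. Set against the mean log2 CPM of these markers in the same library, Slc17a6 stood at 0.04 and -0.17 in P3 HET and at -0.90 and -0.72 in P3 KO RGCs. At E15 it stood at -2.16 and -2.40 in HET and at -3.94 and -4.27 in KO RGCs. SN ran from -1.215 to -0.959 at P3, just under the KO RGCs. At E15 SN stood at -1.76 and -2.51, with the HET RGCs between these values. Of 8 amacrine markers, 1 passed as higher in KO at each age, the GABA-synthesizing enzyme gene Gad2 (302 and 313 CPM at E15 against a mean of 99.8 in HET). Of all genes, 0.264% were called higher at P3 and 0.666% at E15. The summed level of the 8 was 492 to 529 CPM in HET and 857 to 1060 in KO at P3, and 150 to 154 against 405 to 476 at E15. Microglia markers passed as lower in 8 of 10 cases at P3 and in none at E15, against the same 3.15% and 1.18% of all genes. What part these had in the Slc17a6 result was not tested.

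**Figure D3:**
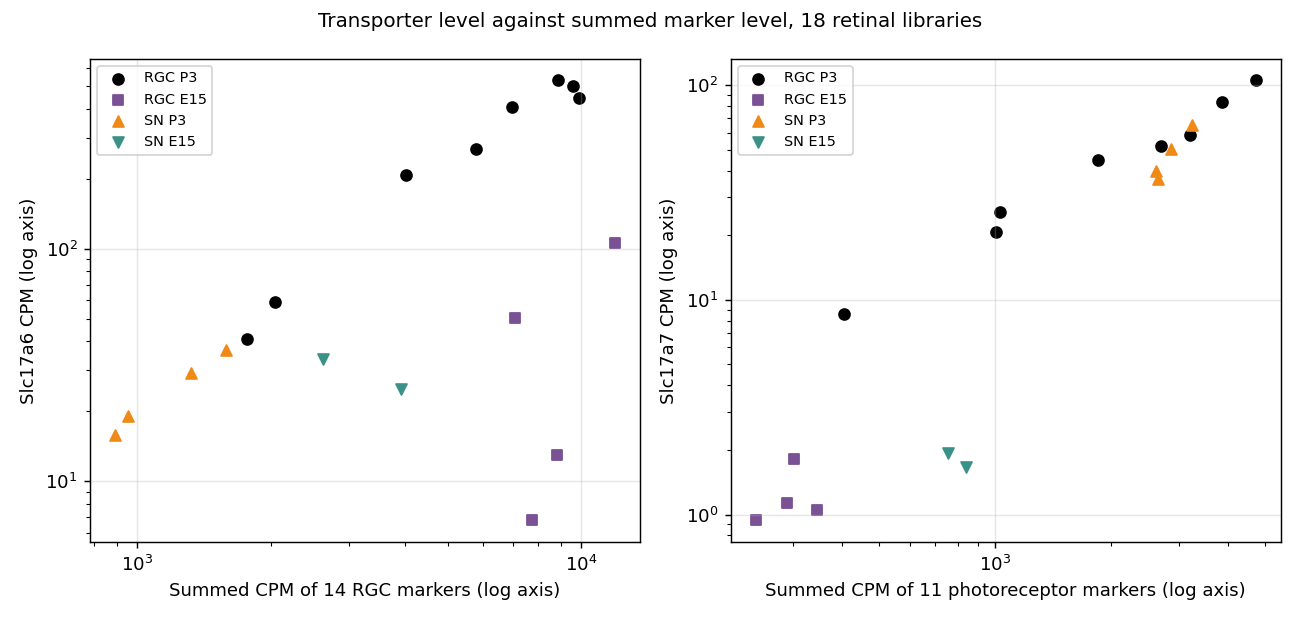
Left, Slc17a6 CPM against the summed CPM of 14 RGC markers; right, Slc17a7 CPM against the summed CPM of 11 photoreceptor markers; all axes logarithmic, 1 point per retinal library. At E15 the Brn3b KO libraries have marker sums of 7732 and 8829 CPM and Slc17a6 at 13.0 and 6.78 CPM. At P3 the Slc17a7 points follow the photoreceptor sum in RGC and SN libraries alike.

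Slc17a6 rose between E15 and P3 in both Brn3b genotypes. Brn3b HET RGCs went from 106 and 50.1 CPM at E15 to 208 and 267 at P3, a log2 rise of 1.61 ± 0.37 (adjusted p = 0.00983; 16.6% of genes called higher), and the adjusted p was 0.0549 without HET P3 replicate 2. Brn3b KO RGCs went from 13.0 and 6.78 to 40.8 and 58.8 CPM, a rise of 2.35 ± 0.38 (adjusted p = 0.00199; 14.4% called higher). SN did not change past the test (-0.22 ± 0.35, adjusted p = 0.672). Between the tagged loci at P3, Brn3b HET RGCs had 2.17-fold less Slc17a6 than Brn3a HET RGCs (-1.11 ± 0.36), which missed the threshold (adjusted p = 0.0873; 3.85% of genes called) and passed with DESeq2 (0.0118) and with only those 4 libraries in the fit (0.0108). In order of level the retinal groups ran Brn3a HET, Brn3a KO and Brn3b HET at P3, without overlap, then Brn3b HET at E15 and Brn3b KO at P3, which overlapped, then the 2 SN groups, which overlapped, and last Brn3b KO at E15.

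**Figure D4:**
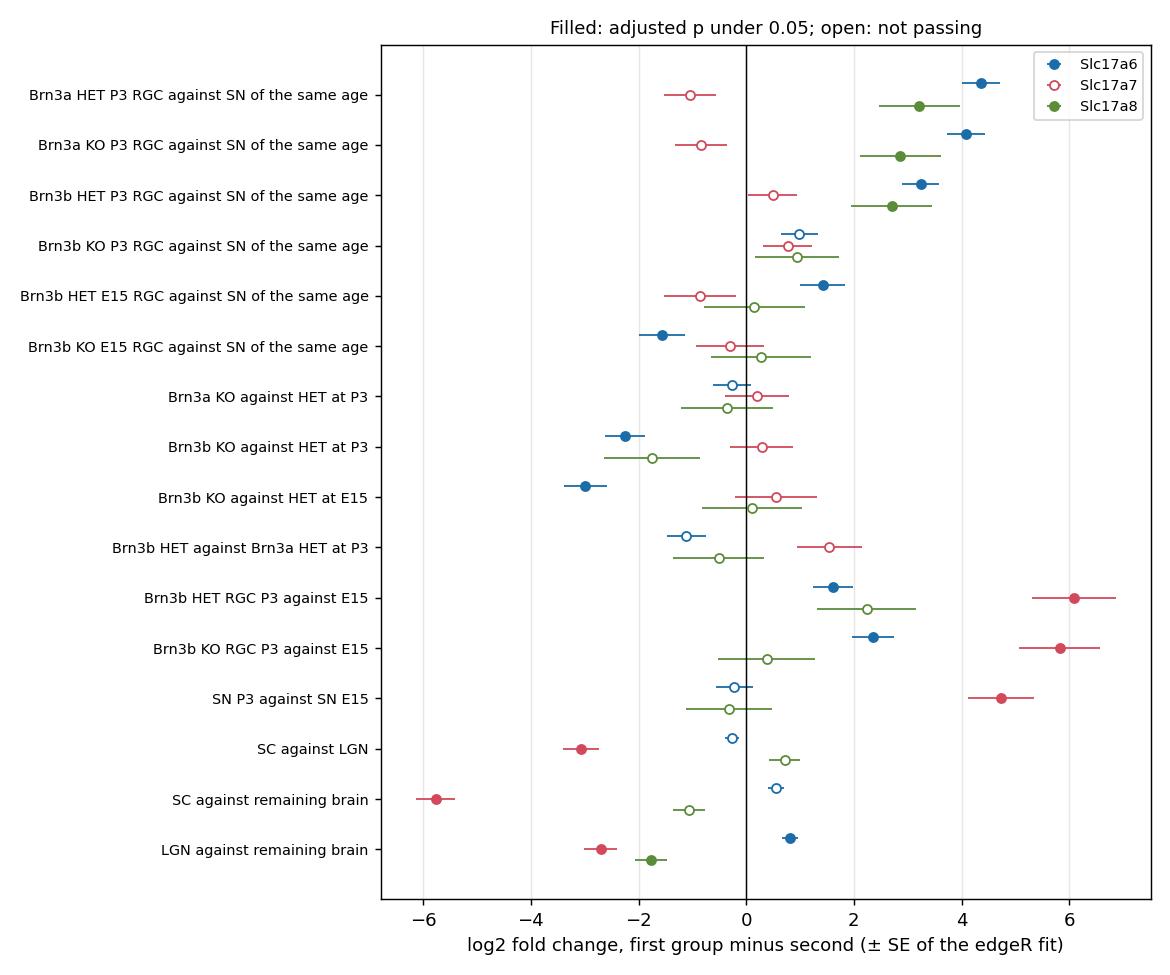
log2 fold change ± SE of each transporter (horizontal axis) in 16 comparisons, first group minus second, from the edgeR fits; filled points have an adjusted p under 0.05. Slc17a6 is filled in the Brn3b KO comparisons at both ages and open in the Brn3a KO comparison, and Slc17a7 is filled in the 3 age comparisons and the 3 brain comparisons.

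Slc17a7 differed between ages and not past the test between genotypes. It was near the bottom of the range at E15, with 0.94 and 1.05 CPM in Brn3b HET RGCs, 1.81 and 1.13 in KO RGCs and 1.67 and 1.93 in SN. At P3 it measured 83.3 and 51.9 CPM in Brn3b HET RGCs, 105 and 58.5 in Brn3b KO RGCs and 36.7 to 65.3 in the 4 SN libraries. No E15 value came near a P3 value. The rise was 6.09 ± 0.77 on the log2 scale in HET RGCs (68-fold; adjusted p = 0.000578), 5.82 ± 0.75 in KO RGCs (0.000631) and 4.73 ± 0.62 in SN (0.000102; 15.6% of genes called higher), and it passed in every fit that left out 1 library. None of the 3 KO contrasts passed, with differences of 0.20 ± 0.59 for Brn3a, 0.29 ± 0.58 for Brn3b at P3 and 0.56 ± 0.76 for Brn3b at E15 (adjusted p from 0.826 to 1).

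In the Brn3a RGC libraries Slc17a7 was below every Brn3b RGC library of P3, but not below every SN library. Brn3a HET measured 20.6 and 25.7 CPM, and the 2 Brn3a KO replicates lay far apart at 8.59 and 44.9 CPM, the latter above 2 of the 4 SN libraries. Neither group passed against SN (-1.05 ± 0.48, adjusted p = 0.0792 for HET; -0.84 ± 0.48, 0.153 for KO), nor did Brn3b HET (0.50 ± 0.45, 0.435) or Brn3b KO RGCs (0.77 ± 0.45, 0.339). Without Brn3a KO replicate 2 the KO difference was -2.51 (adjusted p = 0.000526), and with DESeq2 the HET difference passed (0.0487). The 11 photoreceptor markers, among them the rod factors Nrl and Nr2e3 and the cone and rod factor Crx, summed to 1006 and 1027 CPM in Brn3a HET, 407 and 1850 in Brn3a KO replicates 1 and 2, 3869 and 2696 in Brn3b HET, 4727 and 3197 in Brn3b KO and 2607 to 3228 in SN at P3. The order of the libraries by this sum was close to that by Slc17a7. At E15 the sum was 239 to 346 CPM in RGC and 755 to 839 in SN libraries, with Nr2e3 at 0 in 3 of the 4 RGC libraries. Between E15 and P3, 10 of 11 of these markers rose in Brn3b HET RGCs and 9 in SN, where 16.6% and 15.6% of all genes rose. The part of photoreceptor RNA in the Slc17a7 of AP-positive libraries was not tested.

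Slc17a8 was scarce everywhere in the retina, at 3.683 to 189.9 counts a library. In CPM it measured 2.89 and 5.31 in Brn3a HET RGCs, 2.29 and 4.13 in Brn3a KO, 1.51 and 4.24 in Brn3b HET and 0.49 and 1.21 in Brn3b KO at P3, against 0.11 to 0.80 in the 4 SN libraries. The Brn3a and Brn3b HET libraries all lay above SN, while Brn3b KO overlapped with SN. It passed as higher in Brn3a HET (3.22 ± 0.75, adjusted p = 0.00233), Brn3a KO (2.86 ± 0.75, 0.00545) and Brn3b HET RGCs (2.70 ± 0.75, 0.0135), the last only with Brn3b HET replicate 2 (0.224 without it). Of all genes, 28.8%, 27.5% and 19.6% were called higher in these comparisons, in the same order. In Brn3b KO RGCs the difference from SN was 0.95 ± 0.78 (adjusted p = 0.505), and KO against HET at P3 was -1.75 ± 0.89 (0.316). All E15 libraries held 0.12 to 1.21 CPM, and KO against HET did not pass (0.11 ± 0.93, adjusted p = 0.994). Of the other SLC17 genes 2 of 6 were abundant enough to test in the retina, and neither passed in any RGC comparison.

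Other vesicular transporters also changed with Brn3b. At E15 the GABA and glycine transporter Slc32a1 (VGAT) measured 1.64 and 1.29 CPM in HET RGCs, 45.4 and 43.3 in KO RGCs and 4.88 and 20.6 in SN. KO libraries lay above all others, and the rise over HET was 4.92 ± 0.35, or 30.2-fold (adjusted p = 0.000419; 0.666% of genes called higher). The vesicular acetylcholine transporter Slc18a3 went from 0.35 and 0.14 CPM in HET to 9.45 and 8.40 in KO (5.17 ± 0.90, adjusted p = 0.0214), a call that missed the threshold without any 1 of the 4 libraries (0.0576 to 0.101). The monoamine transporter Slc18a2 (VMAT2) fell with Slc17a6, from 234 and 133 CPM to 48.6 and 32.2 (-2.18 ± 0.35, adjusted p = 0.0145; 0.0696 without HET replicate 1 and 0.135 without KO replicate 2). So of 4 other vesicular transporters at E15 2 rose, where 0.666% of all genes did, 1 fell, where 1.18% did, and 1 did not pass. At P3 Slc18a2 was again lower in KO, 16.4 and 22.9 against 55.1 and 86.4 CPM (-1.84 ± 0.35, adjusted p = 0.028), and Slc32a1 was 25.6 and 26.1 against 17.7 and 13.2 CPM, which did not pass (0.75 ± 0.29, 0.193). For Slc32a1 the KO effect differed between the ages (-4.16 ± 0.43, adjusted p = 0.0102; 0.0511 to 0.0567 without HET E15 replicate 2, KO E15 replicate 1 or KO P3 replicate 1).

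**Figure D5:**
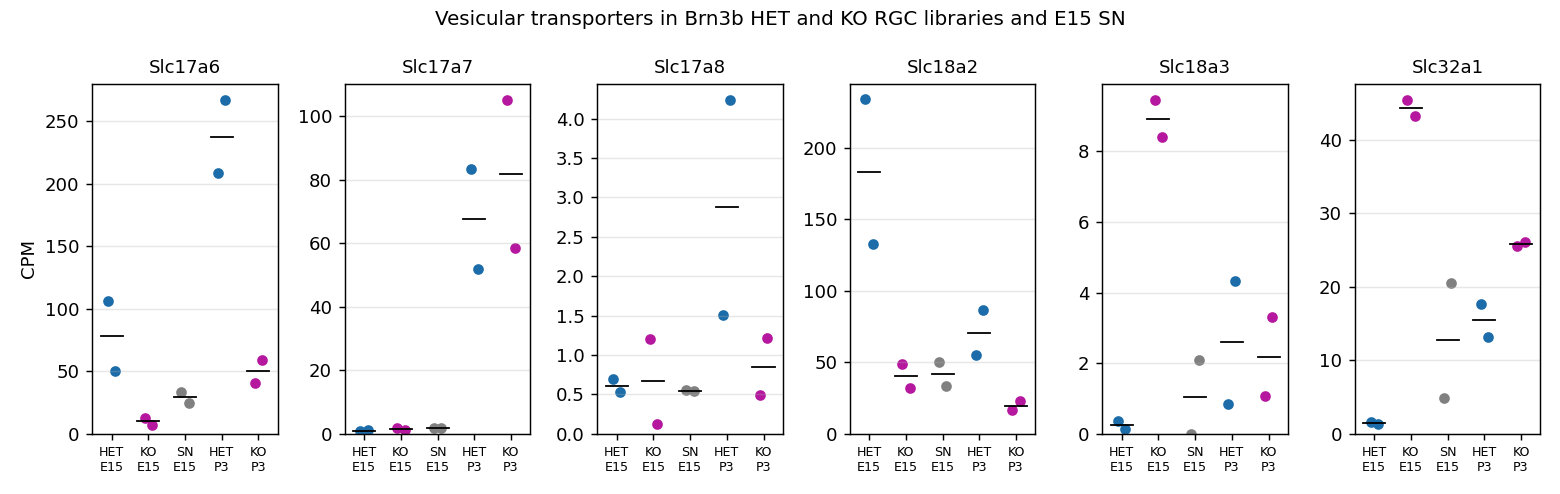
CPM of 6 vesicular transporters (vertical axes start at 0) in Brn3b HET (blue) and KO (magenta) RGC libraries at E15 and P3 and in E15 SN (grey); points are libraries and bars means. At E15 Slc17a6 and Slc18a2 are lower in KO, while Slc32a1, at 45.4 and 43.3 CPM, and Slc18a3 are higher.

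The genes that serve glutamate release were counted from lists. In Brn3a HET RGCs against SN, all 12 genes of the vesicular proton pump and chloride exchange, which make the gradient that VGLUTs use, passed as higher (28.8% of all genes did), with a median log2 difference of 0.90 against -0.03 over all genes. The neuronal pump subunit Atp6v1g2 stood at 106 against 25.7 CPM (2.05 ± 0.18, adjusted p = 7.38e-07). In Brn3a KO all 12 passed as well (27.5% of all genes did), in Brn3b HET 10 of 12 (19.6%) and in Brn3b KO 1 of 12 (5.23%). Of 9 genes of glutamate synthesis and recycling, 5 were higher and 3 lower in Brn3a HET RGCs (27.7% of all genes were lower). The transaminase Got1 was higher (144 against 52.9 CPM, 1.44 ± 0.12, adjusted p = 6.2e-07), whereas the glial glutamine transporter Slc38a3 was lower (20.2 against 137 CPM, -2.76 ± 0.28, 2.63e-06). Of 5 glutamate uptake carriers of the cell membrane none was higher and 3 were lower, among them the glial Slc1a3 (99.0 against 260 CPM, adjusted p = 0.00515). Glial markers did not all go the same way. Progenitor and Mueller glia markers summed to 312 to 315 CPM in Brn3a HET RGCs against 2270 to 3203 in SN. Astrocyte markers summed to 102 to 105 CPM against 9.62 to 15.2.

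Receptors for glutamate were counted the same way against SN. In Brn3a HET 5 of 7 NMDA receptor subunits, 4 of 4 AMPA receptor subunits and 6 of 7 metabotropic receptors tested passed as higher, where 28.8% of all genes did. In Brn3a KO these counts were 4 of 7, 3 of 4 and 4 of 7, with 1 metabotropic receptor lower, where 27.5% of all genes were higher. In Brn3b HET 5 of 7 NMDA subunits passed, but 1 of 4 AMPA subunits and 2 of 7 metabotropic receptors, where 19.6% of all genes were higher. Grin2b stood at 105 CPM in Brn3a HET, 51.4 in Brn3b HET and 11.1 in SN (3.25 ± 0.29 and 2.21 ± 0.28), and Grin3a at 28.9, 30.2 and 3.81 CPM (2.93 ± 0.31 and 2.99 ± 0.31). In Brn3b KO against HET at P3, Grin2d fell from 25.3 to 6.75 CPM (-1.90 ± 0.31, adjusted p = 0.0197), Grin3a from 30.2 to 9.53 (-1.65 ± 0.36, 0.0406), Atp6v1g2 from 69.5 to 32.8 (-1.07 ± 0.19, 0.0241) and Atp6v1c1 from 109 to 72.2 (-0.59 ± 0.12, 0.0336). Slc18a2 fell too, as given above, and no list member was called higher there. Each of these 5 calls missed the threshold without HET replicate 2, KO replicate 1 or KO replicate 2 (adjusted p 0.113 to 0.346), and with only the 4 libraries fitted (0.0625 to 0.097). At E15 Grin3a (0.95 against 8.51 CPM, -3.16 ± 0.41, adjusted p = 0.00595; 0.0524 without KO replicate 2) and Grin2b (1.72 against 6.86 CPM, -1.997 ± 0.35, 0.0222; 0.114 without HET replicate 1 and 0.183 without KO replicate 2) fell, and none of the pump, AMPA, metabotropic, synthesis or uptake genes passed. Between E15 and P3 in Brn3b HET RGCs, 8 of 12 pump genes, 4 of 5 uptake carriers, 4 of 7 NMDA subunits and 4 of 7 metabotropic receptors rose and none fell, where 16.6% of all genes rose. Marker sums moved in the same comparison, from a mean of 293 to 3282 CPM for photoreceptors, 841 to 2336 for microglia and 9492 to 4906 for RGCs, and their part in these counts was not tested. Grin2d went from 2.88 to 25.3 CPM (3.14 ± 0.33, adjusted p = 0.000286).

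In the brain Slc17a6 varied less between regions than Slc17a7 did. Slc17a6 measured 325, 315 and 356 CPM in SC, 426, 352 and 414 in LGN and 265 and 187 in the remaining brain. Only SC 3 and LGN 2 crossed between the SC and LGN ranges, and both regions lay above the remaining brain in every library. LGN was higher than the remaining brain by 0.82 ± 0.16 (1.76-fold; adjusted p = 0.00986, 5.76% of 15288 genes called higher), or 0.59 (adjusted p = 0.0564) without remaining brain replicate 2. SC was 0.56 ± 0.15 above it, which missed the threshold (adjusted p = 0.0657, with 3.19% of genes called higher; 0.0301 with the replicate block; 0.0164 without remaining brain replicate 1), and SC against LGN did not pass (-0.26 ± 0.14, adjusted p = 0.279; -0.25, 0.108 with the replicate block), although SC was lower than the LGN library of its number in 3 of 3 pairs. The single PTA library held 210 CPM.

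Slc17a7 measured 187 and 153 CPM in the remaining brain, 20.4, 26.8 and 31.0 in LGN, 5.17, 1.35 and 2.72 in SC and 1.10 in PTA. The regions did not overlap. It was lower in SC than in LGN by 3.07 ± 0.34 (8.38-fold; adjusted p = 0.000548, 5.78% of genes called lower), lower in SC than in the remaining brain by 5.77 ± 0.36 (54.5-fold; 2.96e-05, 3.75% called lower) and lower in LGN than in the remaining brain by 2.70 ± 0.30 (6.5-fold; 0.000564, 5.17% called lower). In TPM the remaining brain had slightly more Slc17a7 (144 and 110) than Slc17a6 (139 and 91.2), whereas SC had 0.99 to 3.81 TPM of Slc17a7 against 155 to 167 of Slc17a6. The log2 ratio of Slc17a6 to Slc17a7 was 6.31 ± 0.89 (SD, n = 3) in SC and 3.38 ± 0.38 (SD, n = 3) in LGN. The exact two-sided permutation p was 0.1, the smallest that 3 unpaired libraries against 3 can give. That test did not pair the libraries by number. Cortical excitatory neuron markers summed to 545 and 558 CPM in the remaining brain, 4.86 to 6.57 in LGN and 11.9 to 13.5 in SC, and all 6 passed as lower in LGN and in SC than in the remaining brain; their part in the Slc17a7 result was not tested.

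Slc17a8 was highest in the remaining brain, at 8.08 and 11.2 CPM, followed by SC at 4.65, 4.44 and 4.77 and LGN at 1.85, 3.02 and 3.53. No region overlapped another. LGN was lower than the remaining brain by 1.77 ± 0.30 (adjusted p = 0.0059; 0.0522 without remaining brain replicate 2), while SC against the remaining brain (-1.06 ± 0.30, 0.0683) and SC against LGN (0.71 ± 0.28, 0.158, with 4.41% of genes called higher) did not pass. Among the other vesicular transporters, Slc18a2 stood at 259, 266 and 218 CPM in LGN and at 44.1, 1.45 and 2.47 in SC (-3.94 ± 0.91, adjusted p = 0.0243; -6.95 with an adjusted p of 3.6e-05 without SC replicate 1, and 0.0512 to 0.0617 without LGN replicate 1 or 2 or SC replicate 2 or 3). The metabotropic receptor Grm8 was higher in both SC and LGN than in the remaining brain (32.7 and 29.0 against 12.6 CPM; 1.37 ± 0.18 and 1.201 ± 0.18, adjusted p = 0.00218 and 0.00285). None of the 12 pump genes passed between SC and LGN or between SC and the remaining brain, where 10.2% and 6.94% of all genes did.

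The genes whose log2(CPM + 1) was most like each transporter over the libraries were read as a description; libraries of a group share genotype, age and cell fraction. Over 18 retinal libraries, among 10310 genes that averaged 10 CPM or more, those nearest to Slc17a6 were the kinase Stk32b (Pearson r = 0.991), the synaptotagmins Syt4 (0.982) and Syt16 (0.978), Fam43a (0.98) and Cacng5 (0.978), an AMPA receptor auxiliary subunit. Nearest to Slc17a7 were BC027072 (0.995), the rod phosphodiesterase subunit Pde6g (0.995), Lrp4 (0.994), Sec14l2 (0.994) and Ano2 (0.993), a chloride channel of photoreceptor terminals. By Spearman's rho the 5 nearest were the photoreceptor genes Nrl (0.996), Rp1l1 (0.994) and Nr2e3 (0.991), then Fam53b and Ccdc126 (both 0.986). Over 9 brain libraries the nearest to Slc17a6 were Rnf214 (0.965), the nicotinic receptor subunit Chrnb2 (0.96), Gdf11 (0.96), the neuronal glutamate carrier Slc1a1 (0.956) and Neu1 (0.955), and to Slc17a7 the transcription factor Mef2c (0.994), Nwd2 (0.987), Sobp (0.976), Prss35 (0.97) and Chn2 (0.969). Slc17a8 was too scarce in both sets for this reading.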

How the data were processed

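RNA was measured in 27 libraries. Retinal reads were single-end and 76 bases long, brain reads paired and 125 bases long from another instrument, per the labels' protocols; no test crosses between them. The authors deposited estimated counts per Ensembl transcript (88198), not normalized. Bowtie2 2.2.1, eXpress 1.3.1, Trimmomatic 0.32 and build GRCm38.p3 are named, without their roles, per the submitters' processing notes. The libraries were stranded, but use of strand in counting is not given in the sources used here. Many source names name another gene or age, so titles set the groups.

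Counts were summed per gene and rounded to whole numbers, after 27 symbols turned into dates were restored. edgeR 4.0.16 (TMM, filterByExpr minimum count 10, quasi-likelihood F-test, Benjamini-Hochberg, R 4.3.3) was fitted to 18 retinal libraries (16954 genes) for RGC against SN, with SN pooled over genotypes, to the 12 AP-positive libraries (16673 genes) for genotype and age, and to 9 brain libraries (15288 genes). SE was taken as |log2 fold change| over the root of F. CPM used TMM sizes, and TPM used the deposited lengths. Scripts were tested on simulated data. Ratio tests were exact permutations, two-sided. Alternatives were RLE size factors, DESeq2 1.42.0, no filter, fewer or more libraries in the fit, a replicate block, other pseudocounts and each library left out.

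The members, lists and tests were chosen with earlier results of these data known. Named list genes are among the 4 of each list with the smallest adjusted p in a comparison, and the genes most like a member are the 5 with the highest r. Some genes that this rule names are not reported here. Of SC and LGN libraries, those with the same number deviated together (r = 0.237 to 0.449 in 3 pairs), so the numbers were read as pairing these libraries; the fit was kept without the block, whose values are given where a call changed.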

Additional observations from a re-analysis of the deposited data

Results flagged for a closer look

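The single pretectal library, which no comparison used, held all 3 transporters above the level of 3 counts: Slc17a6 at 210.3 CPM, Slc17a7 at 1.099 CPM and Slc17a8 at 0.8988 CPM. With 1 library there is no replicate error and no test. Slc17a6 made up 98.9% of the summed TPM of the 3 genes there, above the 96.4% to 98.0% of the SC libraries.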

How the results depend on the processing

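Of 54 results of a transporter in a comparison, 20 passed, and 12 of these passed in the same direction under every alternative and every fit with 1 library left out. RLE size factors and, for the RGC comparisons, all 18 retinal libraries in 1 fit changed no call. The cause of the changes below was not tested, except that fits with fewer libraries have fewer residual degrees of freedom, and a lone library was assumed to vary like the other groups. DESeq2 added calls for Slc17a7 in Brn3a HET RGC against SN (-0.99), Slc17a8 in Brn3b HET RGC between ages (2.24), and Slc17a6 in Brn3b KO RGC against SN (1.01), Brn3b against Brn3a HET (-1.15), the Brn3b minus Brn3a KO effect (-1.95) and SC against the remaining brain (0.56). With only the compared groups, calls were added for Slc17a7 in Brn3a HET RGC against SN (-1.06) and in Brn3b against Brn3a HET (1.55) and for Slc17a6 in the latter (-1.11, also without a filter), and Slc17a6 lost its calls in E15 RGC against SN (HET 1.46, KO -1.53) and in Brn3b KO against HET (-2.25 at P3, -2.97 at E15). With the replicate block Slc17a6 in SC against the remaining brain was 0.53 and passed, and no other transporter call changed. Among the 12 AP-positive libraries, deviations of those of 1 number had r from -0.335 to 0.436, with 14 of 30 pairs above 0.1. With 2 libraries a group, pairs of either number give the same r by construction. Between HET and KO of the same number r was 0.436 in Brn3b at E15, 0.249 in Brn3a at P3 and 0.0483 in Brn3b at P3. Whether the numbers mark pairs there is not settled by these values or the labels. The block moved Slc17a6 in Brn3b KO against HET to -2.24 at P3 and -2.98 at E15, both called. Whether an SN library shares a preparation with an RGC library was not checked, and the ratio test does not pair them.

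Ranges with 1 library left out follow where a call or a sign changed. For Slc17a6 they were 0.79 to 1.87 (Brn3b HET E15 RGC against SN), -2.08 to -1.14 (KO E15 RGC against SN), -2.52 to -2.01 (Brn3b KO against HET at P3), 1.17 to 2.24 (Brn3b HET between ages), -0.39 to 0.049 (SN between ages), 0.59 to 1.09 (LGN against remaining brain) and 0.33 to 0.83 (SC against remaining brain). For Slc17a7 they were -2.51 to -0.13 (Brn3a KO RGC against SN), -1.40 to 0.94 (Brn3a KO against HET), -0.65 to 0.035 (Brn3b KO E15 RGC against SN), -0.20 to 0.67 (Brn3b KO against HET at P3), -0.77 to 0.10 (Brn3b KO effect between ages) and -0.65 to 1.69 (Brn3b minus Brn3a KO effect). For Slc17a8 they were 1.75 to 3.26 (Brn3b HET P3 RGC against SN), -0.055 to 0.36 (HET E15 RGC against SN), -2.11 to 1.16 (KO E15 RGC against SN), -0.71 to 0.031 (SN between ages), -0.82 to 0.13 (Brn3a KO against HET), -2.28 to 0.98 (Brn3b KO against HET at E15), -1.46 to 0.028 (Brn3b against Brn3a HET), -0.50 to 2.77 (Brn3b KO between ages), -2.73 to 0.54 (Brn3b KO effect between ages) and -1.99 to -1.52 (LGN against remaining brain). The ratio difference of P3 RGC and SN ran from 3.03 to 4.03.

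Counts of called genes moved by over 1.5 times. DESeq2 called 58 genes where edgeR called 3 in Brn3a KO against HET, 3899 against 2236 in Brn3b HET E15 RGC against SN, 1958 against 1144 in Brn3b KO P3 RGC against SN, 804 against 308 and 1545 against 569 in Brn3b KO against HET at E15 and P3, 345 against 32 for the Brn3b KO effect between ages, 2981 against 642 between HET loci and 337 against 2 for the KO effect between loci. With only the compared groups edgeR called 378, 935, 22 and 6 genes in Brn3b HET E15 RGC and KO E15 RGC against SN (main 4028), Brn3b KO against HET at E15 and the effect between ages, 2949 against 4809 in Brn3b HET between ages, and 3173 against 642 between HET loci. In edgeR no gene was called in Brn3a KO against HET with the block (455 at an unadjusted p under 0.05) or with only the compared groups (627), in Brn3b KO against HET at P3 with only the compared groups (3164), or for the KO effect between loci with only the compared groups (1736). With 1 library left out, counts ran from 1 to 549 (Brn3b KO against HET at P3), 83 to 338 (at E15), 31 to 84 (between HET loci), 606 to 3434 and 840 to 4792 (Brn3b HET and KO E15 RGC against SN), 2653 to 5409 (main 5627) and 628 to 1099 (Brn3b HET and KO P3 RGC against SN), 2849 to 3997 and 2302 to 2796 (main 4240; Brn3b HET and KO between ages), 2766 to 5255 (main 5616; SN between ages), 1 to 71 (KO effect between ages), 770 to 1462 (main 1557; SC against LGN), 467 to 1066 (main 1061; SC against remaining brain) and 859 to 1548 (main 1672; LGN against remaining brain). They ran from 0 to 6 in Brn3a KO against HET (0 without Brn3a HET replicate 1, 254 at an unadjusted p under 0.05, or KO replicate 2, 611) and from 0 to 2 for the KO effect between loci (0 without Brn3a HET replicate 1, 923, or Brn3b KO replicate 1, 1232). Ranked by Spearman's rho, 2 of the 5 genes most like Slc17a6 and 0 of the 5 most like Slc17a7 in retina were shared, and 1 and 2 in brain; over the 12 AP-positive libraries alone, 2 and 1 were shared.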
